A study of Homo sapiens with 4 samples.

Results

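Long intergenic noncoding RNAs (lincRNAs) that carry a LINC symbol were compared between FLO-1LM and FLO-1 parental cells. A gene was taken when its symbol on the human build GRCh37 was LINC followed by digits, when it did not lie on chromosomes 8 or 14, and when it had at least 20 counts summed over the 4 libraries. The members were thus chosen by their symbol, position and summed count over both lines. This gave 211 genes of the 63677 listed in the files, under 210 distinct symbols, since *LINC01238* stands for 2 gene records. The files held 2106 LINC genes in all, of which 169 lay on the chromosomes left out. Of the other 1937, 1487 had 0 counts in all 4 libraries and 239 had 1 to 19 counts. Their being detected is therefore not a result. The difference between the lines did not enter the choice.

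FLO-1 is an established cell line from a human esophageal adenocarcinoma. FLO-1LM is the subline grown out of a liver metastasis of FLO-1 cells after repeated passage through NSG mice, which lack T, B and natural killer cell function, and neither line carried a treatment or an added gene as labelled. No source used here says whether FLO-1LM goes back to 1 cell or many. Its cells spent time in a host and further passages in culture that the parental cells did not, so the differences between the lines cannot be told apart from this history. Each line had 2 libraries, made with a directional kit from extracted total RNA. Whether polyadenylated RNA was selected or ribosomal RNA removed is not stated in the sources used here. Nor do these say if each library stands for a culture of its own. Each p-value below therefore measures the spread between these libraries, which may be technical.

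LincRNA genes are transcribed by RNA polymerase II, and most of their transcripts are capped, spliced and polyadenylated like a messenger RNA but hold no long open reading frame. Many are present at a low level, stay in the nucleus, are turned over by the nuclear exosome and differ sharply between cell types. A few act on the chromatin of neighboring genes, bind proteins or microRNAs, or encode a small protein, while for most no function is known.

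The sequences around the annotated start of 3 members are shown because these genes are described most closely: *LINC00963* was the most abundant member, *LINC00665* the next, and *LINC02361* had one of the smallest p-values. Each runs from 250 bases before the start to 50 bases after it, 5′ to 3′ on the strand of the gene, is taken from RefSeq on GRCh38.p14, and has each CG dinucleotide in capitals. They lie at chr9:129488410-129488709 on the plus strand, at chr19:36331669-36331968 on the minus strand and at chr12:132189646-132189945 on the minus strand, in that order.
LINC00963: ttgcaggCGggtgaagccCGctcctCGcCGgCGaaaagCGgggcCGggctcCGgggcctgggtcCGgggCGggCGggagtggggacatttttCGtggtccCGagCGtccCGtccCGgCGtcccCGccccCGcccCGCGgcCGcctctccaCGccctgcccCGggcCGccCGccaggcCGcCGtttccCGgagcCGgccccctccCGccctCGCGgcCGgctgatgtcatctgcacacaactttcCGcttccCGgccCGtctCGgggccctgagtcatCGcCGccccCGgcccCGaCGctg
LINC00665: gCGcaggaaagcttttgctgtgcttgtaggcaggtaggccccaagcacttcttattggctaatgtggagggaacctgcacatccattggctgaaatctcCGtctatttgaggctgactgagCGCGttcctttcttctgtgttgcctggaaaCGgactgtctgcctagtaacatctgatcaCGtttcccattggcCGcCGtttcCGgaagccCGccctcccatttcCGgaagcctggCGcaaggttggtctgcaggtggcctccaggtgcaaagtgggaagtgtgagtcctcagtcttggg
LINC02361: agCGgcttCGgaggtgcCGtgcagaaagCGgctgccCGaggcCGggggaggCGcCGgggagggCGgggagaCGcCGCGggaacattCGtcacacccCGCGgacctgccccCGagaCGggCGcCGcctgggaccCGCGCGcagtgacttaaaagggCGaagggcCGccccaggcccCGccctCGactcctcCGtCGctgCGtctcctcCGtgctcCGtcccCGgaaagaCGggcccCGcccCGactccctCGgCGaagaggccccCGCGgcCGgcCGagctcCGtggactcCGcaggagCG
The first held 43 CG dinucleotides, the next 12 and the last 44. RefSeq had such a sequence for 144 of the 211 members, with a median of 18 CG dinucleotides. Over all 27305 promoters of the table the median was 14, and over the 10954 promoters of genes tested here it was 27. At least 10 CG dinucleotides were found in 70.1% of the members' promoters, in 56.0% of all promoters and in 89.3% of those of tested genes. The letters TATAAA, on either strand, stood in 9.72% of the members' promoters, in 12% of all promoters and in 5.19% of those of tested genes. For the 116 promoters of tested members, the set to place beside the tested genes, the median was 19.5 CG dinucleotides. Of these promoters 75.9% held at least 10 CG dinucleotides and 9.48% held TATAAA. These shares describe the base composition of the windows, and no test was run on them.

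Total counts on genes ran from 19060310 to 25920336 per library. Levels are given as CPM, which relate a gene's counts to its library's total, after TMM scaling, a step that puts libraries of different size and composition on one scale. The epithelial keratin genes *KRT8*, *KRT18* and *KRT19* had means of 273, 184 and 12.9 CPM in FLO-1LM, and of 444, 291 and 32.0 CPM in parental cells. *CDH1*, which encodes E-cadherin, had 18.1 CPM in FLO-1LM and 84.2 CPM in parental cells, while *EPCAM*, another epithelial marker, was near 0 in both lines, at 0.3 and 0.169 CPM. The leukocyte marker *PTPRC*, the fibroblast marker *DCN* and the hepatocyte markers *ALB* and *TTR* had 0 counts in every library, while the collagen gene *COL1A1* had means of 11.7 and 11.1 CPM. Further markers of such cells, *CD3E*, *CD68*, *VWF*, *COL1A2* and *APOA1*, had a few counts, at most 7 in any library. Reads were mapped to a human reference, so these counts say little about mouse host cells. In bulk samples, fewer cells of a type and less RNA per cell cannot be told apart.

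Most members were scarce. The median summed count was 92, 101 of the 211 members had at least 100 counts and 18 had at least 1000. Mean CPM over the 4 libraries ran from 0.215 to 224 with a median of 1.04, and 107 members lay above 1 CPM. *LINC00963* alone took 20.9% of the members' summed CPM, and the first 10 members took 51.4%. The members lay on 21 chromosomes, 25 of them on chromosome 1. Their median exon length was 3057 bp in 4 exon blocks, and 29 members were annotated as a single block. The annotation called 205 of them long noncoding, 5 pseudogenes (*LINC00680*, *LINC02210*, *LINC00674*, *LINC00888* and *LINC01881*) and 1, *LINC00999*, protein coding. In 202 members each of the 4 libraries had a count, and in 0 members were both libraries of a line at 0.

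The most abundant member, *LINC00963*, lies on GRCh37 at chr9:132239225-132275966 on the plus strand and has been studied as a lincRNA of prostate cancer cells. It had 210 and 224 CPM in the FLO-1LM libraries and 224 and 239 CPM in the parental libraries, on 19963 counts in all. The FLO-1LM libraries were a little lower and those of the 2 lines did not overlap, but the log2 fold change was only −0.094 with a standard error (SE) of 0.075, and its 95% confidence interval ran from −0.25 to 0.063. Per kilobase of annotated exon its mean level was 15.9 CPM. On that scale *LINC02968*, with 1001 bp of exon, reached 20.7 CPM per kilobase and *LINC02593* 8.67, while *LINC00680* at 36.8 and *LINC00674* at 18.2 have annotated exons of only 181 and 160 bp.

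*LINC00665*, a lincRNA among the zinc finger genes of chromosome 19 and described in several carcinomas, lies at chr19:36750442-36822672 on the minus strand. It had 70.3 and 82.3 CPM in FLO-1LM and 65.9 and 64.9 CPM in parental cells. Both FLO-1LM libraries were above both parental libraries, and the spread within FLO-1LM was larger than the gap between the lines' nearest libraries. The log2 fold change was 0.22 (SE 0.094, interval 0.027 to 0.42), with an adjusted p of 0.321 by edgeR (0.0283 before adjustment). Without the first FLO-1LM library the log2 fold change was 0.33 and the adjusted p 0.0171.

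*LINC02593*, a gene of a single exon block at chr1:852245-856396 next to *SAMD11*, had 32.2 and 33.6 CPM in FLO-1LM and 38.4 and 39.7 CPM in parental cells. The FLO-1LM libraries lay below both parental libraries. Its log2 fold change was −0.25 (SE 0.11, interval −0.47 to −0.025), with an adjusted p of 0.336 by edgeR (0.031 before adjustment). *LINC00662* and *LINC02987* are neighbors on chromosome 19 that overlap on opposite strands. The first had 44.6 and 44.9 CPM in FLO-1LM and 49.3 and 43.1 CPM in parental cells, and the other had 44.8 and 43.3 CPM against 37.3 and 45.4 CPM. For both, the lines overlapped.

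The other 5 of the 10 most abundant members also differed by little. *LINC00839* had mean levels of 32.0 CPM in both lines, with a log2 fold change of −0.0013 (SE 0.11). *LINC00667*, opposite the zinc finger gene *ZBTB14*, had 31.3 and 29.2 CPM in FLO-1LM and 29.3 and 28.3 CPM in parental cells. *LINC00339*, upstream of the small GTPase gene *CDC42*, had 31.9 and 28.8 CPM against 27.9 and 28.3 CPM, and was the only one of these 5 whose lines did not overlap. In *LINC00173* and *LINC02968* the first FLO-1LM library stood below the other 3. *LINC00173* had 17.8 CPM there and 22.2 to 23.6 CPM elsewhere, and *LINC02968* had 16.4 CPM there and 21.6 to 22.4 CPM elsewhere. For the 10 members the log2 fold changes ran from −0.25 to 0.22 and the adjusted p from 0.321 to 0.997.

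**Figure D1:**
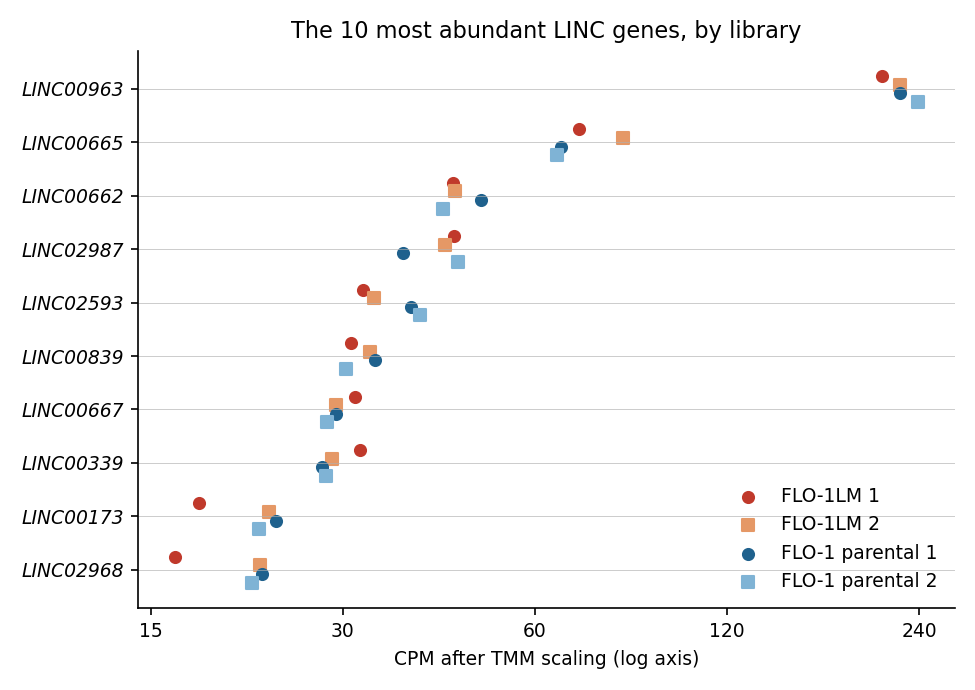
CPM of the 10 most abundant LINC genes in each of the 4 libraries, on a log axis, with FLO-1LM in red and orange and FLO-1 parental in blue and 1 point per library. *LINC00963* lies between 210 and 239 CPM in all 4 libraries. *LINC00665* and *LINC02593* separate by line, as do *LINC00963* and *LINC00339* by narrow margins. The first FLO-1LM library stands below the other 3 for *LINC00173* and *LINC02968*.

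The comparison of the lines asked which of these genes differ between the metastatic subline and its parent. Of the 211 members, 168 passed the filter on low counts and were tested, and the other 43 had 20 to 40 counts. By the quasi-likelihood test of edgeR, adjusted by Benjamini-Hochberg over all 17143 genes tested, 0 of the 168 were lower and 0 were higher in FLO-1LM at an adjusted p below 0.05. Over all genes tested 2.23% were called, 1.83% lower and 0.402% higher. The smallest adjusted p among the members was 0.173 and the next was 0.192. At an unadjusted p below 0.05 there were 16 members, 9 lower and 7 higher, or 9.52% of those tested, beside 12.4% of all genes tested. DESeq2 gave 4 members at an unadjusted p below 0.05 and limma voom 16, and both gave 0 after adjustment, beside 1.97% and 2.15% of all genes tested.

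The members' log2 fold changes were centered near 0. Their median was −0.028, with quartiles at −0.21 and 0.27, beside a median of 0.0016 over all genes tested. There were 90 members below 0 and 78 above. In 30 tested members both FLO-1LM libraries were below both parental libraries, and in 34 both were above. Over all genes tested these shares were 21.7% and 20.9%, and among the members they were 17.9% and 20.2%. Of the 43 members not tested, 10 were lower in both FLO-1LM libraries by CPM, 6 were higher and 27 overlapped.

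**Figure D2:**
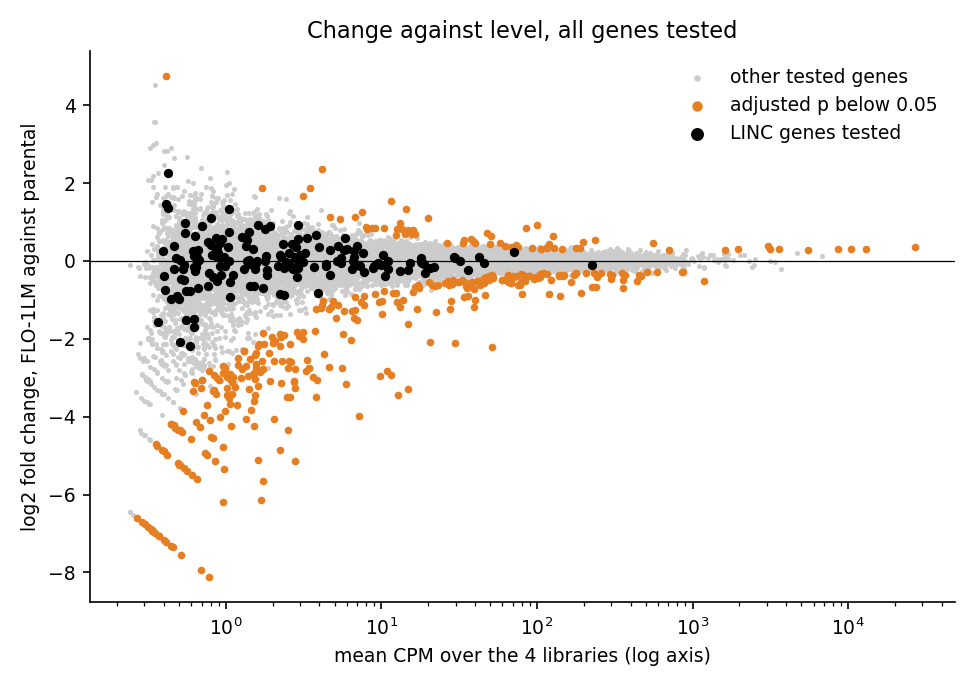
Log2 fold change of FLO-1LM against parental cells (y axis) against mean CPM over the 4 libraries (x axis, log scale) for each of 17143 tested genes, with genes called at an adjusted p below 0.05 in orange and the 168 tested LINC genes in black. The black points widen around 0 as the level falls, from −2.18 to 2.27, and none is among the called genes.

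Counts limited what could be seen. The median SE of the members' log2 fold changes was 0.45, beside 0.14 for all genes tested, and their median summed count was 154.5 beside 1707. The 95% interval lay wholly within a 2-fold difference either way for 65 of the 168 members and reached past it for 103. Of the 51 tested members with at least 300 counts, 47 had an interval within 2-fold, and their log2 fold changes ran from −0.82 to 0.67. The 4 whose intervals reached further were *LINC00342*, *LINC01275*, *LINC02035* and *LINC00630*. A log2 fold change beyond 1 in size was found for 11 members, 6 lower and 5 higher, and the best covered of these had 98 counts. At this depth even a difference of more than 2-fold in such genes did not pass the test.

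The background of calls depends on depth as well. In classes of summed counts that began at 20, 50, 100, 300 and 1000, 23, 44, 50, 33 and 18 members were tested, with 0 called in each. Of all tested genes in these classes, 4.15%, 3.16%, 3.11%, 1.47% and 1.24% were called lower. Among genes with no opposite-strand gene of 10 times their counts, the shares were 0%, 0.46%, 0.115%, 0.802% and 1.17%. The share called lower among scarce genes was thus much smaller once genes opposite an abundant one were set aside.

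Some of the members with an unadjusted p below 0.05 by edgeR are described next. They were picked after their values were seen, and other members with such a p are given elsewhere. *LINC00342* lies at chr2:96472800-96500751, 1916 bp from *ANKRD36C*, and had 2.65 and 3.03 CPM in FLO-1LM and 5.26 and 4.80 CPM in parental cells. The lines were well apart relative to the spread within each, with a log2 fold change of −0.82 (SE 0.28, interval −1.40 to −0.24). Its p was 0.00794 and its adjusted p 0.173 by edgeR. Without the second FLO-1LM library the adjusted p was 0.0455.

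*LINC02361*, whose promoter is shown above, lies at chr12:132671280-132674273 on the minus strand. It had 3.14 and 4.43 CPM in FLO-1LM and 2.09 and 1.93 CPM in parental cells, so that the FLO-1LM libraries were higher and differed more between themselves. Its log2 fold change was 0.91 (SE 0.33, interval 0.22 to 1.61) with an adjusted p of 0.22, and 1.14 with an adjusted p of 0.0177 without the first FLO-1LM library. *LINC02035* had 6.28 and 7.69 CPM against 5.08 and 4.17 CPM, a log2 fold change of 0.59 (SE 0.24) and an adjusted p of 0.286, or 0.0377 without the first FLO-1LM library. *LINC00899* had 2.96 and 2.02 CPM against 1.18 and 1.51 CPM, a log2 fold change of 0.89 (SE 0.42) and an adjusted p of 0.399. The FLO-1LM libraries were above both parental libraries in all 3.

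A further 3 members of this kind were lower in both FLO-1LM libraries. *LINC01128*, on chromosome 1 near *LINC02593*, had 8.66 and 9.56 CPM in FLO-1LM and 11.6 and 12.2 CPM in parental cells, with a log2 fold change of −0.38 (SE 0.18) and an adjusted p of 0.393. *LINC02086*, by the homeobox gene *HOXB7*, had 2.15 and 1.05 CPM against 2.90 and 2.87 CPM, with a log2 fold change of −0.86 (SE 0.41) and an adjusted p of 0.4. *LINC00511*, described below with the cancer lincRNAs, was the remaining one. The libraries of each line were close for *LINC01128*, and those of FLO-1LM were far apart for *LINC02086*.

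The largest fold changes stood on few counts. *LINC02875*, of a single exon block on chromosome 17, had 11 and 24 counts in FLO-1LM and 4 and 2 counts in parental cells, with a log2 fold change of 2.27 (SE 0.87, adjusted p 0.259). *LINC02696* had 5 and 5 counts against 24 and 16, with −2.18 (SE 0.76, adjusted p 0.192). *LINC01503*, known as a lincRNA driven by a super-enhancer in squamous cell carcinoma, had 7 and 7 counts against 26 and 14, with −1.70 (SE 0.72, adjusted p 0.33). The lines did not overlap for these 3. *LINC00304* and *LINC01357* had log2 fold changes of 1.46 and 1.33, and *LINC01165*, *LINC00629* and *LINC00685* had −1.58, −1.51 and −1.48, on 32 to 98 counts each. In these last 3 the first FLO-1LM library had 1, 3 and 4 counts and the other FLO-1LM library had 8, 11 and 12. *LINC00304* shares exon bases on its own strand with the coding gene *ACSF3*, as 11 members do with some other gene, so its reads may belong in part to that gene.

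**Figure D3:**
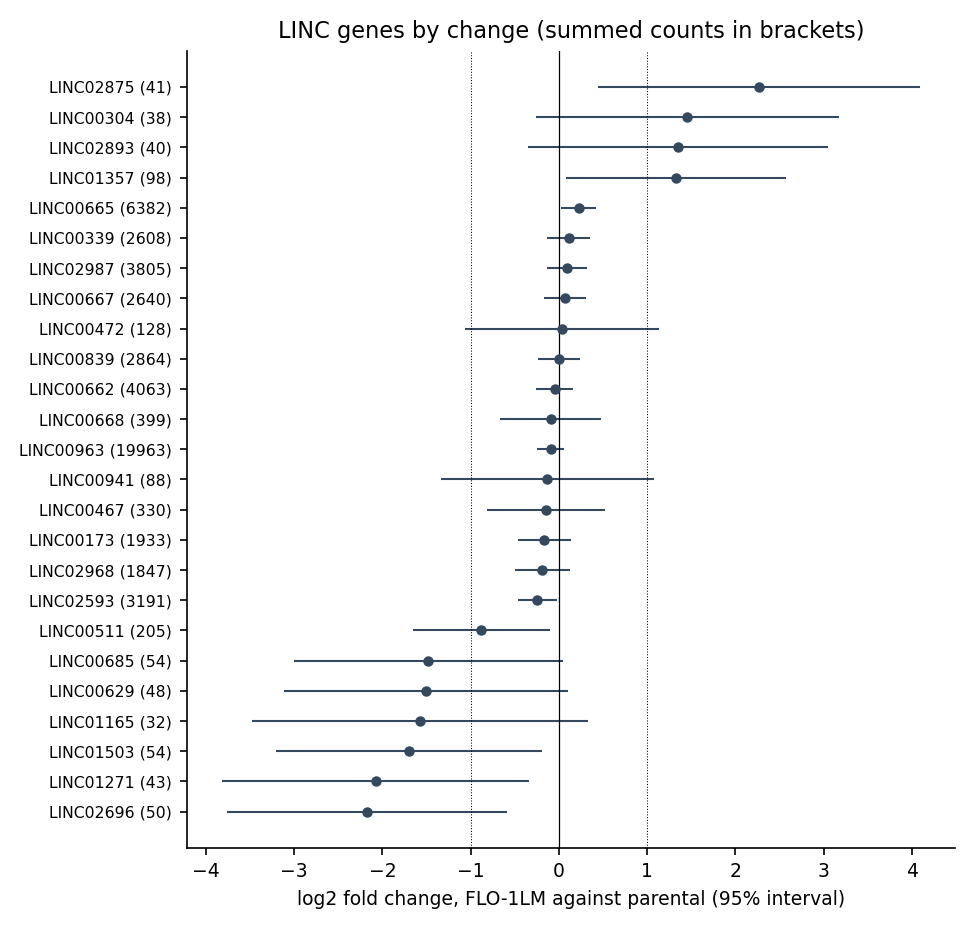
Log2 fold change of FLO-1LM against parental cells (x axis) with its 95% interval for 25 LINC genes, namely the 10 most abundant, the 10 with the largest change and those of the cancer list, each with its summed counts in brackets; dotted lines mark a 2-fold difference. Intervals are narrow around 0 for genes such as *LINC00963* with 19963 counts and wide for those with under 100 counts, such as *LINC02875* with 41.

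Single libraries carried some of the members. Without the first FLO-1LM library 1 of 186 tested members was lower and 3 were higher at an adjusted p below 0.05, beside 3.87% lower and 1.98% higher of all genes tested in that fit. Without the second 4 of 186 were lower and 1 was higher, beside 3.58% and 1.81% of all genes. Leaving out the first or the second parental library gave 0 members, beside 0.651% and 0.775% of all genes in either direction. Calls over all genes thus rose when a FLO-1LM library was left out, and these member counts are not above that background. Besides those given above, the calls were *LINC02086* (−1.46) without the first FLO-1LM library, and *LINC01881*, *LINC01186*, *LINC02846* and *LINC00937* without the second. *LINC01881* had 0 counts in the first FLO-1LM library and 17, 16 and 12 in the others. *LINC01186* had 4 counts there and 45, 28 and 24 elsewhere, and *LINC02846* had 29 there and 92, 69 and 65 elsewhere. *LINC00937* had 23 counts there and 2 in each of the others. For these 4 genes the first FLO-1LM library stood apart from the other 3.

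Among the 51 members with at least 300 counts, the log2 ratio of the first to the second FLO-1LM library had a median of −0.13 and an SD of 0.30. Between the parental libraries the median was 0.00036 and the SD 0.21. Over the 12598 tested genes with at least 300 counts the medians were 0.0063 and 0.00087 and the SDs 0.25 and 0.18. The members were thus lower in the first FLO-1LM library than in the second by more than was seen for all genes, and the parental libraries showed no such shift.

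The summed level of the members gives the same picture without a test. It was 1028 and 1102 CPM in FLO-1LM and 1082 and 1082 CPM in parental cells, with means of 1065 ± 51.9 and 1082 ± 0.176 CPM (SD, n = 2). The parental values lay between the FLO-1LM values. The log2 ratio of the means was −0.023, and −0.0041 without *LINC00963*.

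LINC genes studied in carcinoma cells were taken as a list of 26 symbols, of which 8 were members and all 8 were tested, with 0 past the threshold. Some others on the list, such as *LINC00152* and *LINC00657*, had counts but have other names in the annotation used here, so they were not members. *LINC00963*, *LINC00665* and *LINC00839* are given above. *LINC00511*, described as higher in breast and lung cancers and as binding the Polycomb protein EZH2, had 1.39 and 1.90 CPM in FLO-1LM and 2.77 and 3.34 CPM in parental cells. Its libraries did not overlap, and its log2 fold change was −0.88 (SE 0.37, interval −1.66 to −0.10), with an adjusted p of 0.323 by edgeR (0.0288 before adjustment).

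The other 4 overlapped between the lines. *LINC00941*, beside *CAPRIN2* and studied for its part in metastasis of gastric and colorectal cancers, had 23 and 22 counts in FLO-1LM and 28 and 15 counts in parental cells, with a log2 fold change of −0.13 (SE 0.58). *LINC00467* had 54 and 117 counts against 77 and 82, with −0.15 (SE 0.32), and *LINC00668* had 78 and 131 counts against 110 and 80, with −0.091 (SE 0.27). *LINC00472*, described as lower in aggressive breast tumors, had 19 and 51 counts against 37 and 21, with 0.035 (SE 0.52). For *LINC00467* and *LINC00472* the FLO-1LM libraries differed by more than the lines did. A further list of 9 LINC symbols now known as genes of small proteins held 0 members, since the annotation used here gives them other names.

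The members were chosen in part because few lie opposite an abundant gene. Of the 211, 111 had no opposite-strand gene with a count here that overlapped them or started within 1 kb of their start. A further 23 started within 1 kb of the start of an opposite-strand gene, 27 lay within or across the body of one without shared exon bases, 44 shared exon bases with one and 6 shared exon bases with one that had at least 10 times their counts. Of the 83, 21, 18, 41 and 5 tested members in these classes, 0 were called, and the median log2 fold changes were −0.039, −0.0066, 0.11, −0.11 and 0.26 in that order. Of all tested genes with a known position in these classes, 1.12%, 0.443%, 0.873%, 0.729% and 12.9% were called lower. The shares called higher were 0.494%, 0.38%, 0.499%, 0.343% and 0.0854%. With so few members per class, 0 calls cannot be told apart from these shares.

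The 6 members opposite a far more abundant gene were all scarce. *LINC02482*, *LINC01018* (opposite the RNA methyltransferase gene *NSUN2*) and *LINC02893* had log2 fold changes of 1.11, 0.26 and 1.35, and *LINC00472* (opposite *OGFRL1*) had 0.035. *LINC01271* had −2.08, opposite another member, *LINC01270*. *LINC01635*, opposite *LINC00339*, had 21 counts and was not tested. Of the 5 tested, 4 were above 0 and 1 was below, which is too few genes to read a direction from.

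Antisense genes, whose symbol ends in AS and a number, and the other long noncoding genes were taken with the same minimum count and without the same chromosomes. Of 455 tested antisense genes 26 were called lower (5.71%) and 0 higher, with a median SE of 0.43 and a median of 166 counts, both close to those of the members. Of 1157 other long noncoding genes 86 were called lower (7.43%) and 0 higher. Whether these shares differ from that of the members was not tested.

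Both groups divided sharply by what lies opposite. Of the 255 antisense genes that share exon bases with an opposite-strand gene of at least 10 times their counts, 23 were called lower (9.02%), with a median log2 fold change of −0.38. Of the other 200, 3 were called lower (1.5%), with a median of 0.010. Among the other long noncoding genes, 83 of 421 opposite such a gene were called lower (19.7%, median −1.06), and 3 of 736 not opposite one (0.408%, median −0.020). The 163 members without such a gene had 0 calls and a median of −0.039, near the medians of the genes in that class. The 2 sides also differed in depth. Median summed counts were 91 opposite such a gene and 364.5 otherwise for antisense genes, and 73 and 126.5 for the other long noncoding genes. The division also uses each gene's own summed counts, which include those of FLO-1LM. The strand setting with which the authors counted is not given in the sources used here. Its part in these differences, and that of depth, was not tested.

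**Figure D4:**
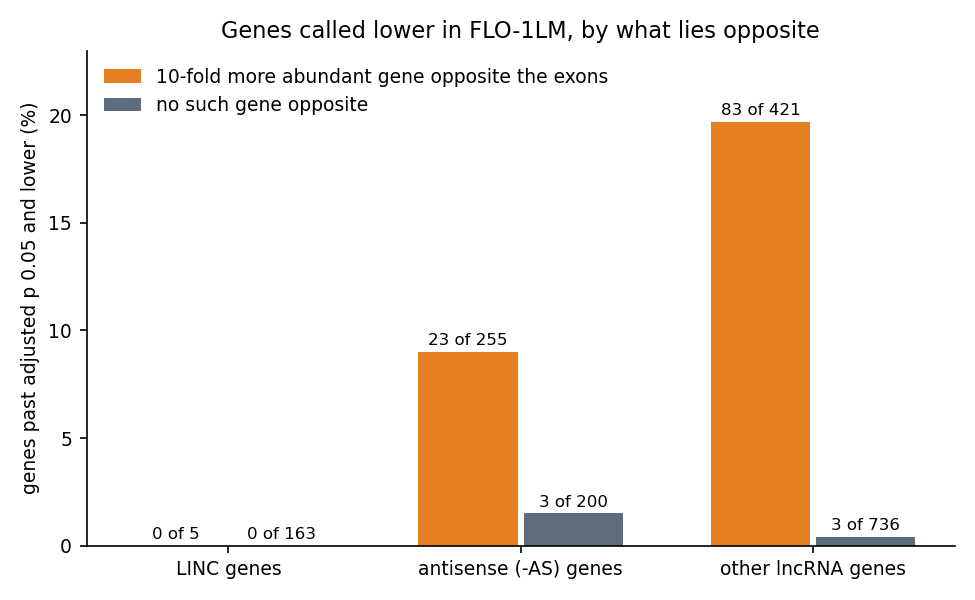
Percent of tested genes called lower in FLO-1LM at an adjusted p below 0.05 (y axis, from 0) for LINC genes, antisense genes and other long noncoding genes, divided by whether a gene of 10 or more times their counts lies opposite their exons, with the number called and tested above each bar. Of the LINC genes 0 of 5 and 0 of 163 were called, beside 83 of 421 and 3 of 736 other long noncoding genes.

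The summed CPM showed the same division. Antisense genes opposite a gene of at least 10 times their counts summed to 464 and 490 CPM in FLO-1LM and 671 and 635 CPM in parental cells. Other long noncoding genes of that kind summed to 518 and 525 CPM against 957 and 969 CPM, a ratio of the means of 0.542. The 205 members without such a gene opposite summed to 1025 and 1097 CPM against 1078 and 1079 CPM, a ratio of 0.984.

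Some lincRNAs act on, or are transcribed together with, a neighboring coding gene, so the nearest tested protein-coding gene of each tested member was listed. The 168 members had 153 distinct such neighbors at a median distance of 13752.5 bp. The nearest gene overlapped 17 members, and 76 members had it within 10 kb. A member and its neighbor had the same sign of log2 fold change in 95 of 168 cases (56.5%). Of the tested members 53.6% were below 0, and of all tested protein-coding genes 48.2%, so many pairs share a sign without any link. Some members also share a neighbor. The share was not tested and is no result about the members. Of the 153 neighbors 5 passed the threshold, 4 lower and 1 higher, and they stood next to 8 members. Of all tested protein-coding genes 1.19% were called lower and 0.463% higher, and the 4 and 1 of 153 neighbors are not below these shares. Whether the shares differ was not tested, and the calls among the neighbors are no result about the members.

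*CEBPB*, which encodes the transcription factor C/EBP beta, was lower in FLO-1LM with a log2 fold change of −0.87 (adjusted p 0.00014), and was the nearest coding gene of 3 members on chromosome 20. *LINC01273*, 14154 bp from it, had 5.30 and 5.09 CPM in FLO-1LM and 5.22 and 5.22 CPM in parental cells, a log2 fold change of −0.0071 (SE 0.24). *LINC01270*, 100041 bp away on the same strand as *CEBPB*, had 15.8 and 18.3 CPM against 20.9 and 21.6 CPM, with −0.31 (SE 0.14) and an adjusted p of 0.364. *LINC01271*, which overlaps *LINC01270* on the opposite strand, had 7 and 2 counts against 19 and 15, with −2.08 (SE 0.83) and an adjusted p of 0.288. The libraries of the lines did not overlap for the last 2, and the member closest to *CEBPB* hardly differed.

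*LINC01275* lies in the same stretch of chromosome 20, on the other side of *LINC01273* from *CEBPB*, with *PEDS1* as its nearest tested coding gene. It had 4.98 and 4.35 CPM in FLO-1LM and 2.68 and 3.18 CPM in parental cells, a log2 fold change of 0.67 (SE 0.28) and an adjusted p of 0.32. Neighboring members of this stretch thus had folds of either sign, none past the threshold.

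The other 4 such neighbors also had members that did not pass. *ATP5PO*, a subunit gene of the mitochondrial ATP synthase, was higher with 0.34 (adjusted p 0.045), while *LINC00649*, which overlaps it on the opposite strand, had 236 and 342 counts in FLO-1LM and 367 and 228 counts in parental cells and a log2 fold change of −0.26 (SE 0.19). *SNX10* was lower with −0.47 (adjusted p 0.00937), and *LINC02981*, 24210 bp away, had −0.0058 (SE 0.45). *A2M*, which encodes the protease inhibitor alpha-2-macroglobulin, was lower with −0.49 (adjusted p 0.0324), and *LINC00987* and *LINC02367* had −0.36 and −0.47 with SEs of 0.58 and 0.73. *GAS1* was lower with −1.04 (adjusted p 0.049), and *LINC02893*, 60934 bp away, had 1.35 (SE 0.81).

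The machinery that processes and degrades noncoding polymerase II transcripts was taken as a list of exosome, exosome adaptor, Integrator and related genes, of which 31 were tested. By edgeR 0 passed the threshold in either direction, with 2 lower and 1 higher at an unadjusted p below 0.05, beside the shares of all genes given above. Their median log2 fold change was −0.0038, and the range was from −0.35 for the exosome cofactor *MPHOSPH6* (adjusted p 0.291) to 0.28 for the catalytic exosome subunit *DIS3* (adjusted p 0.184). The nuclear exonuclease *EXOSC10* had −0.056, the helicase *MTREX* 0.054, the adaptor *ZFC3H1* 0.066 and the exonuclease *XRN2* −0.019.

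At the minimum of 20 counts the members were *LINC01843* with 5 and 4 counts in FLO-1LM and 8 and 3 counts in parental cells, *LINC01748* with 2 and 8 against 5 and 5, and *LINC02363* with 7 and 9 against 2 and 2. Just outside it, with 19 counts, were *LINC00431* with 5 and 3 against 7 and 4, *LINC00933* with 4 and 0 against 6 and 9, and *LINC01337* with 1 and 11 against 3 and 4.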

How the data were processed

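RNA of FLO-1LM and FLO-1 parental cells was sequenced in 4 libraries, 2 per line, as labelled. The authors trimmed adapters with Trimmomatic 0.30, mapped reads to the Ensembl GRCh37 reference and deposited raw read counts per Ensembl gene. The aligner, the counting program, its strand setting and its handling of reads with several matches are not given in the sources used here.

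The files hold gene IDs. Symbols, positions and biotypes came from GENCODE mapped to GRCh37, a later annotation than the one counted on, which matched 55665 of 63677 IDs and left 437 tested genes without a symbol. Genes were filtered with filterByExpr (minimum count 10, minimum total 15), scaled by TMM and compared by edgeR 4.0.16 in R 4.3.3 (estimateDisp, glmQLFit, glmQLFTest, two-sided), with Benjamini-Hochberg adjustment over all 17143 genes tested and a threshold of 0.05. The SE is the absolute log2 fold change over the square root of F. With 2 libraries per line no permutation test of a single value can reach the threshold. Overlaps and summaries were computed in Python 3.11.15, and the scripts were tested on simulated data first. Total counts of 19060310 to 25920336 per library set the precision.

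Members were named if past the threshold, among the 10 most abundant or the 10 with the largest change, on the fixed lists, beside the minimum count, or if the opposite-strand or neighbor result turned on them. Those named for a small p, or for a call with a library left out, were chosen after their values were seen. The members and lists were chosen with earlier results of these data known.

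The study used limma voom with a linear model of cell line, which was an alternative here (limma 3.58.1), as were DESeq2 1.42.0, RLE factors, library totals, no filter, at least 10 counts in every library, no mitochondrial genes, no genes whose exons lie opposite a gene of 10 or more times their counts, and each library left out. Adding genes with a LINC symbol among their synonyms was chosen after seeing the data.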

Additional observations from a re-analysis of the deposited data

How the results depend on the processing

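For the LINC genes themselves, the counts of 0 lower and 0 higher held under every alternative that kept all 4 libraries, with a smallest adjusted p of 0.118 (no filter) to 0.424 (DESeq2). With 1 library left out, 0 to 4 members were lower, 0 to 3 were higher, out of 186 tested, and the median log2 fold change ran from −0.073 to 0.045; the lone library of a line is then assumed to vary like the others. Calls over all genes also rose when a FLO-1LM library was left out, and the member counts were not above the shares of all genes given above for those fits. The median otherwise ran from −0.060 with library totals, which moved the median of all genes to −0.029, to −0.022, and the log2 ratio of the summed level from −0.054 to −0.0041. Adding the genes with a LINC symbol among their synonyms gave 1 gene lower, *H19*. For the 25 named members tested, 186 of 187 folds kept their sign and their side of the threshold, the exception being *LINC00472* under voom (−0.040). With 1 library left out 13 of 100 folds changed sign: *LINC00173* ran from −0.36 to 0.0035, *LINC00467* from −0.67 to 0.23, *LINC00472* from −0.71 to 0.50, *LINC00662* from −0.14 to 0.055, *LINC00668* from −0.39 to 0.15, *LINC00839* from −0.073 to 0.076, *LINC00941* from −0.43 to 0.27, *LINC02968* from −0.43 to 0.014 and *LINC02987* from −0.043 to 0.24. The cause was not tested. No replicate block was fitted: the labels number the 4 libraries in one run and give the lines no shared replicate numbers.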

Other observations

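Genes that have another name and a LINC symbol among their RefSeq synonyms were looked up after seeing the data. Some of these synonyms are also symbols of members, such as *LINC01357*. There were 96 such genes with at least 20 counts, 61 annotated as long noncoding and 30 as protein coding. Of the 96, 90 were tested, and by edgeR 1 was lower in FLO-1LM (1.11%) and 0 were higher. Of the 58 long noncoding ones tested 1 was lower (1.72%). Over all genes tested 1.83% were lower and 0.402% higher, so the counts are not above the background. The one was *H19*, an imprinted gene of fetal growth once listed as *LINC00008*, with 32.2 and 30.5 CPM in FLO-1LM and 39.6 and 51.2 CPM in parental cells. Its log2 fold change was −0.53 (SE 0.12) with an adjusted p of 0.0225. Both FLO-1LM libraries were below both parental libraries, which differed more between themselves than the FLO-1LM libraries did.

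The abundant RNAs of this kind differed little. *NORAD*, which binds Pumilio proteins and was once *LINC00657*, had 291 and 308 CPM in FLO-1LM and 329 and 311 CPM in parental cells, a log2 fold change of −0.097 (SE 0.073, adjusted p 0.667). *CYTOR*, once *LINC00152* and studied in several carcinomas, had 35.6 and 43.7 CPM against 41.2 and 42.3 CPM, with −0.070 (SE 0.11, adjusted p 0.879).

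Several of these genes are now known to encode small proteins, and none of those tested passed. *SMIM30* had 13.3 and 13.3 CPM in FLO-1LM and 10.5 and 11.7 CPM in parental cells, with a log2 fold change of 0.26 (SE 0.17). *BRD3OS* had −0.012 (SE 0.095), *SMIM26* −0.10 (SE 0.17), *NBDY* 0.11 (SE 0.19) and *MTLN*, which encodes a mitochondrial micropeptide, 0.062 (SE 0.31). The lines did not overlap for *SMIM30*, while *BRD3OS*, *SMIM26* and *MTLN* overlapped.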
